A study of Rattus norvegicus with 8 samples.

Results

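AP-1 (activator protein 1) is a family of transcription factors that bind DNA as dimers, and its genes were followed here in rat Achilles tendons 12 hours after a single run. The 9 genes were taken by their symbols in the deposited expression table: the Fos family (*Fos*, *Fosb*, *Fosl1*, and *Fosl2*), the Jun family (*Jun*, *Junb*, and *Jund*), and the related genes *Atf3* and *Maff*. They were 9 of the 32883 genes in the count table, of which 21046 had at least 1 read. All 9 passed the filter on low counts, as did 13937 genes in all.

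The tissue was the right Achilles tendon of 8 wild-type male Sprague-Dawley (SD) rats, 8 to 10 weeks old. Of these, 4 ran uphill on a treadmill for 1 hour and were killed 12 hours later (12 h p.r., post-running). The other 4, the naïve controls (NC), stayed in their cages and were killed at the same time, so both groups share the hour of death but not the run, the treadmill, or the airflow and mild electric stimulus used to keep rats running. Each rat gave 1 polyadenylated mRNA library of a whole tendon, in which fewer cells of a type and less RNA per cell cannot be told apart.

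A dimer forms when the leucine zippers of both proteins pair, and the basic regions next to the zippers then grip the DNA. Jun proteins can pair with each other or with Fos proteins, whereas Fos proteins need a Jun partner. *Fos*, *Fosb*, *Jun*, and *Junb* are immediate early genes: their transcription rises within minutes of serum, stretch, or injury and falls soon after. *Fosl1* and *Fosl2* encode FRA1 and FRA2, which usually follow later and last longer, and *Jund* is active in many resting cells. In connective tissue, AP-1 is best known as an activator of matrix metalloproteinase genes.

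The sum of reads on genes ran from 7350509 to 12951397 per rat, so 1 CPM (1 read in 1000000 of the scaled library) stood for 7.59 to 13.2 reads. All 10 tenocyte markers passed the filter and summed to between 20531 and 56640 CPM in each rat. *Col1a1* and *Dcn* led this sum, at means of 25745 and 9450 CPM, while *Scx* was at 43.9 CPM. No other tissue was sequenced for comparison, so the sum does not test the tendon label. Some rats stood apart in tissues around the tendon. 12 h p.r. replicate 3 had the highest sum of 9 skeletal muscle markers, 54184 CPM against 2384 to 10294 CPM in the others, and the lowest tenocyte sum. NC replicate 3 had the highest sum of the cartilage and bone markers, at 1168 CPM, and 12 h p.r. replicate 1 the highest of its group, at 395 CPM, against 4.05 to 18.7 CPM in the others. The fold changes without these 3 rats are given after those of all rats.

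The promoters of *Maff* and *Fosl1*, the AP-1 genes with the smallest p values between the groups, and of *Jund*, the one with the highest level, are shown first. They are RefSeq sequences of the rat assembly GRCr8, a different build from Rnor_6.0 on which the reads were counted, and each runs from 250 bases before the gene's start to 50 bases after it on the strand of the gene. Capitals mark TGACGTCA, the cAMP response element to which AP-1 dimers with ATF or CREB proteins bind. The *Maff* promoter is chr7:112792537-112792836 (plus strand), that of *Fosl1* is chr1:212183635-212183934 (plus strand), and that of *Jund* is chr16:18769722-18770021 (minus strand).
Maff: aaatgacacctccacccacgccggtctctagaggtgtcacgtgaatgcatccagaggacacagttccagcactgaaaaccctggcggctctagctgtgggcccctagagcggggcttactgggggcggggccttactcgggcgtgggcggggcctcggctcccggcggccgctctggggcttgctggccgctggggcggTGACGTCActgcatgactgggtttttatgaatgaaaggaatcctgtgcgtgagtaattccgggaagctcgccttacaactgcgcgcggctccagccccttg
Fosl1: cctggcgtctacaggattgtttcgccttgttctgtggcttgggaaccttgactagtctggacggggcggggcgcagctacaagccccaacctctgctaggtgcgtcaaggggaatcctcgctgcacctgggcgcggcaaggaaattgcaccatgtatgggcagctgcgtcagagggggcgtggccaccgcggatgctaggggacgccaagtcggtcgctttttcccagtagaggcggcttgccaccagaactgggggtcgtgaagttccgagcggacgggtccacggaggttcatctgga
Jund: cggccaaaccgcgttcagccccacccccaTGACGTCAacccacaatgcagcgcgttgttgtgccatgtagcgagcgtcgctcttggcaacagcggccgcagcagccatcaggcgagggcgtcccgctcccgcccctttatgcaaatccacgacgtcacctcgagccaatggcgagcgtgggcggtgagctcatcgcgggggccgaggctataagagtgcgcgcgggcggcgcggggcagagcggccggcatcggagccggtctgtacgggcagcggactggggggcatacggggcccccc
TGACGTCA was found on either strand in 1.83% of 33469 rat promoters of this length, and among the 6 AP-1 genes with a promoter in the table it was found in *Maff*, 51 bases before the start, and in *Jund*, 221 bases before the start. The classical AP-1 site TGANTCA, present in 7.33% of all promoters, was in none of the 6 windows, nor was a CArG box, the serum response element core, present in 1.64%. TATAAA, present in 14.2%, was in *Junb*, 49 bases before the start, and in *Fosb*, on the opposite strand and 180 bases before the start. A match is only a match of letters, and no match says only that the letters are not in this window. *Fos*, *Jun*, and *Atf3* were not in the promoter table.

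Per length of transcript, the 3 Jun genes were the most abundant of the AP-1 genes in 7 of 8 rats, and in 12 h p.r. replicate 4 *Maff* was just above *Jun*. The levels were compared as FPKM (reads scaled to gene length and library size), in which *Jund* had a median of 77.5 FPKM over the 8 rats, *Junb* of 42.2, and *Jun* of 33.03. *Maff*, which encodes a small Maf protein with no activation domain of its own, followed with a median of 18.4 FPKM. *Fos* was at 15.3 FPKM and *Fosl2* at 10.3 FPKM. *Atf3*, a stress-induced member of the ATF/CREB family, was at 3.60 FPKM. *Fosl1* and *Fosb* were the lowest, at 1.69 and 1.21 FPKM, and *Fosb* was higher than only 9.39% of all genes tested while *Jund* was higher than 92.5%.

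Not every step in this order was larger than the spread between rats. *Junb* was above *Jun*, *Fosl2* above *Atf3*, and *Atf3* above *Fosl1* in 8 of 8 rats. *Jund* was above *Junb* in 7 rats, and *Jun* above *Maff* in 7. *Maff* was above *Fos* in 6 rats, *Fos* above *Fosl2* in 6, and *Fosl1* above *Fosb* in 6, so these neighbours overlapped. The gene length that the FPKM values imply differed widely, from 744 bases for *Fosl2* to 3741 bases for *Fosb*. The level of *Fosl2* therefore rests on the shortest gene model of the 9. By CPM, which ignores length, *Jun* came before *Junb*, *Atf3* before *Fosl2*, and *Fosb* before *Fosl1*.

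**Figure D1:**
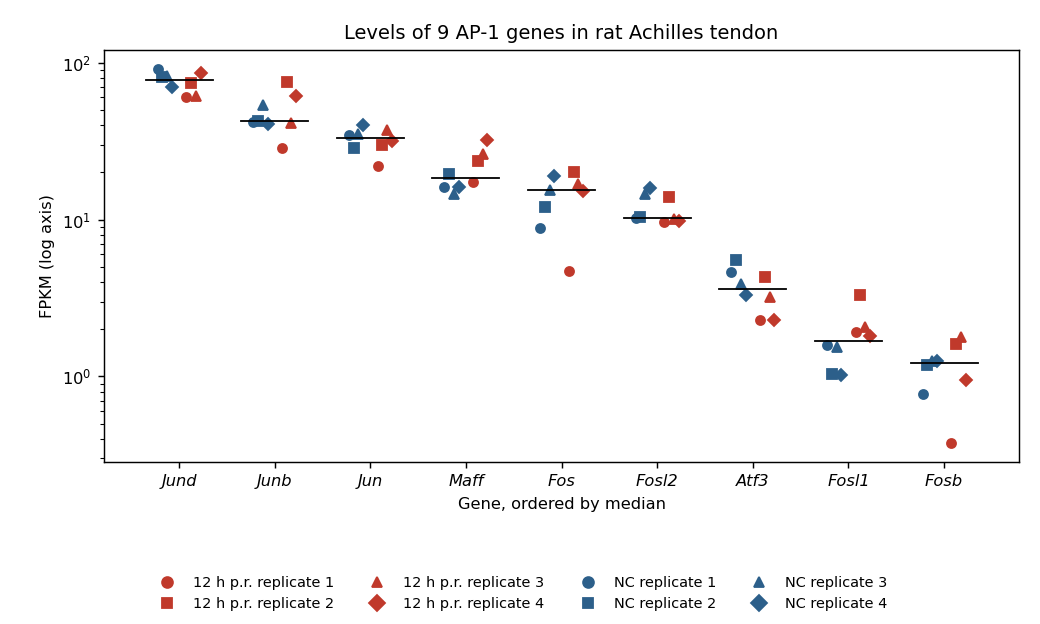
FPKM of the 9 AP-1 genes (y axis, logarithmic) in each of the 8 rats, with genes ordered by their median (black line) on the x axis, 12 h p.r. rats in red and NC rats in blue. The Jun family lies at the top, with medians from 33.03 to 77.5 FPKM, and *Fosb* at the bottom with 1.21 FPKM.

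Within the families, 1 rat stood apart in its proportions. Of the summed Fos family FPKM, *Fos* took 51.8 to 54.9% in 12 h p.r. replicates 2 to 4 but 28.1% in replicate 1, against 41.1 to 50.9% in the NC rats. *Fosl2* took the largest share in 12 h p.r. replicate 1, at 58.0%, and 32.7 to 47.9% in the other rats. These shares depend on gene length, and the gene model of *Fosl2* had 744 bases against 1589 bases for *Fos*. By reads, *Fos* had 58 and *Fosl2* 56 in 12 h p.r. replicate 1. The share of *Fosl1* was 6.46 to 11.6% at 12 h p.r. and 2.75 to 7.44% in the NC group. In the Jun family, *Jund* took 41.3 to 54.5% at 12 h p.r. and 46.6 to 54.5% in the NC group, and *Junb* 25.8 to 42.05% and 24.9 to 31.4%. For every gene the ranges of the groups overlapped. The summed Jun family exceeded the summed Fos family by 4.07 to 7.87 times in the 8 rats.

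**Figure D2:**
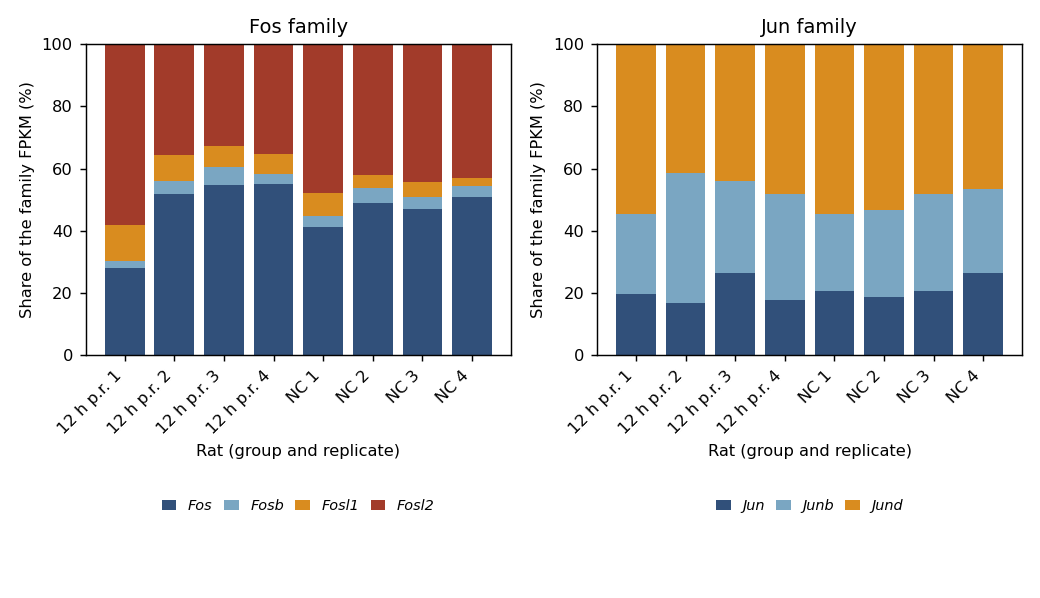
Share of each gene in the summed FPKM of its family (y axis, %) for the Fos family (left) and the Jun family (right) in each rat (x axis). 12 h p.r. replicate 1 has the smallest share of *Fos*, 28.1%, and the largest of *Fosl2*, 58.0%. The shares depend on gene length, and the gene model of *Fosl2* is the shortest.

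Whether the AP-1 genes differed between running and resting rats 12 hours after the run was tested with edgeR's quasi-likelihood test over all 13937 genes. None of the 9 had a Benjamini-Hochberg adjusted p value under 0.05 (0.00718% of all genes did). At an unadjusted p value under 0.05, 2 of 9 were higher at 12 h p.r., *Maff* and *Fosl1*, and 0 were lower, against 9.51% of all genes in either direction (5.44% higher and 4.08% lower). DESeq2's Wald test called 0 of the 9 after adjustment (0.685% of the 14015 genes with an adjusted p value). At an unadjusted p value under 0.05 it called 3 of the 9, the same 2 and *Atf3*. Of the 20945 genes with a DESeq2 p value, a wider set than the 13937 of edgeR, 6.5% were under 0.05. In edgeR, 5 of 9 log2 fold changes were above 0, with a median of 0.05, against 54.2% and a median of 0.02 over all genes tested.

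*Maff* (ENSRNOG00000012886) was at 33.9, 46.0, 50.9, and 62.8 CPM in the 12 h p.r. rats and at 31.5, 38.1, 28.5, and 31.4 CPM in the NC rats. All running rats but replicate 1 were above all NC rats, so the groups overlapped by 1 rat. The log2 fold change was 0.58 (standard error, SE, of 0.18; edgeR adjusted p = 0.433), a fold of 1.498 with a 95% interval from 1.13 to 1.98. The unadjusted edgeR p value was 0.00954, and *Maff* had the smallest adjusted p value of the 9 genes. An exact permutation test of log2(CPM + 0.5) gave a 2-sided p of 0.0571, where 4 rats against 4 cannot go below 0.0286.

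*Fosl1* (ENSRNOG00000020552) was at 3.24, 5.53, 3.45, and 3.004 CPM at 12 h p.r. and at 2.65, 1.72, 2.57, and 1.70 CPM in the NC group. Every running rat was above every NC rat, as in 3.52% of all genes tested (2.55% were lower without overlap, and 6.06% did not overlap in either direction), and *Fosl1* was the only 1 of the 9 genes without overlap. Its log2 fold change of 0.80 had the largest size among the 9 (SE 0.28, edgeR adjusted p = 0.452), a fold of 1.74 with a 95% interval from 1.12 to 2.71 and an unadjusted edgeR p value of 0.0193. The exact permutation test gave p = 0.0286, its smallest value.

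The values of *Fosl1* rest on few reads. There were 25 to 42 reads per running rat and 14 to 34 per NC rat. The lowest running rat, at 3.004 CPM, had an exact Poisson 95% interval of 2.05 to 4.24 CPM, and the highest NC rat, at 2.65 CPM, one of 1.82 to 3.71 CPM. These intervals cover counting error only and overlap, so the order of these rats was not resolved at this depth. Without 12 h p.r. replicate 2, the highest rat, the log2 fold change of *Fosl1* was 0.57 with an unadjusted edgeR p value of 0.0611, and without NC replicate 4, the lowest, it was 0.70 with one of 0.0529.

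*Atf3* had the lowest log2 fold change of the 9. Its gene (ENSRNOG00000003745) was at 6.73, 12.5, 9.40, and 6.67 CPM at 12 h p.r. and at 13.5, 16.2, 11.3, and 9.69 CPM in the NC group. The running rats other than replicate 2 lay below all NC rats. The log2 fold change was −0.52 (SE 0.24, edgeR adjusted p = 0.547, unadjusted p value of 0.0621), with a 95% interval of the fold from 0.475 to 1.02. DESeq2 gave an unadjusted p value of 0.0485 and an adjusted p value of 0.538. The edgeR unadjusted p value of *Atf3* was 0.0114 without 12 h p.r. replicate 2 and 0.0388 without NC replicate 4. In RefSeq's GRCr8 annotation *Atf3* overlaps *Garin4* and *Fosb* overlaps a long noncoding RNA gene. The strand setting of the counting is not given in the sources used here, so shared reads could not be told apart.

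**Figure D3:**
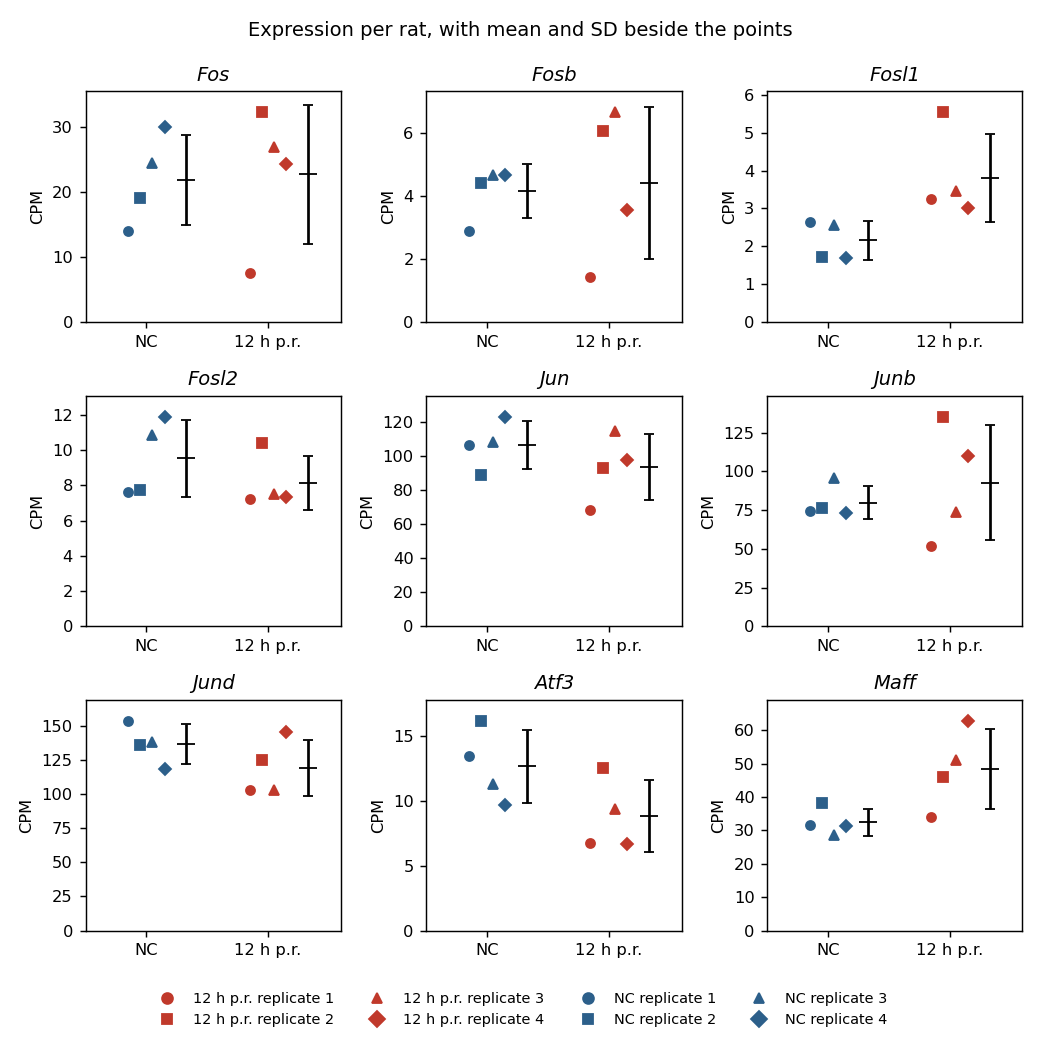
CPM (y axis, from 0) of each of the 9 genes in the 4 NC rats (blue) and the 4 rats at 12 h p.r. (red), with a marker shape per replicate and the mean and SD of the group beside the points. Only *Fosl1* has every running rat above every NC rat, from 3.004 CPM upward against at most 2.65 CPM.

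*Fos* (ENSRNOG00000008015) differed more between rats of a group than between the groups. It was at 7.51, 32.3, 26.9, and 24.4 CPM at 12 h p.r. and at 13.9, 19.1, 24.5, and 30.1 CPM in the NC group. Its lowest and its highest rat were both running rats. The running rats averaged 22.8 ± 10.7 CPM and the NC rats 21.9 ± 6.95 CPM (mean ± SD of 4 rats each), and the log2 fold change was 0.05 (SE 0.40). *Fosb* (ENSRNOG00000046667), its closest relative, was at 1.42, 6.06, 6.66, and 3.57 CPM at 12 h p.r. and at 2.89, 4.42, 4.68, and 4.67 CPM in the NC group. It had 11 reads in 12 h p.r. replicate 1, which was again the lowest rat, and 36 to 62 in the others. Its log2 fold change was 0.09 (SE 0.41).

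*Fosl2* (ENSRNOG00000052357) was at 7.25, 10.4, 7.50, and 7.32 CPM at 12 h p.r. and at 7.61, 7.73, 10.9, and 11.9 CPM in the NC group. In each group some rats sat near 7 to 8 CPM and the others above 10 CPM. The log2 fold change was −0.24 (SE 0.21).

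Among the Jun genes, *Junb* (ENSRNOG00000042838), which can counter *Jun* in cell growth, had the widest spread. It was at 51.8, 135, 73.9, and 110 CPM at 12 h p.r. and at 74.8, 76.2, 95.6, and 73.2 CPM in the NC group. The running rats lay on both sides of the NC range. The log2 fold change of 0.21 (SE 0.26) was −0.026 without 12 h p.r. replicate 2. 12 h p.r. replicates 1 and 3 and NC replicate 3, the rats with high cartilage or muscle markers, were also left out together. The log2 fold change of *Junb* was then 0.71 (SE 0.13, edgeR unadjusted p value of 0.000808, adjusted p = 0.265). This fit compared 12 h p.r. replicates 2 and 4 with NC replicates 1, 2, and 4. The rats left out were the lowest running rats in *Junb*, at 51.8 and 73.9 CPM, and the highest NC rat, at 95.6 CPM. The *Junb* value therefore depends on which rats are counted.

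*Jun* (ENSRNOG00000026293) was at 68.5, 92.9, 115, and 98.01 CPM at 12 h p.r. and at 107, 88.8, 108, and 123 CPM in the NC group. *Jund* (ENSRNOG00000019568) was at 103, 125, 103, and 146 CPM and at 154, 136, 138, and 118 CPM. Both lay within overlapping ranges, with log2 fold changes of −0.19 (SE 0.16) and −0.20 (SE 0.14). Without 12 h p.r. replicate 4, *Jund* was at −0.31 with an edgeR unadjusted p value of 0.0447. For 6 of the 9 genes (*Fos*, *Fosl2*, *Jun*, *Junb*, *Jund*, and *Maff*) the 95% interval of the fold lay within a 2-fold change in either direction. This holds for the main test with all rats only. The upper ends of *Fos* and *Maff*, at 1.93 and 1.98, were just under a 2-fold change. The intervals of *Fosb* (0.555 to 2.04), *Fosl1*, and *Atf3* reached beyond it. The edgeR adjusted p values of the 9 genes ran from 0.433 to 0.979.

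The fold changes were computed again without 12 h p.r. replicates 1 and 3 and NC replicate 3. This left 12 h p.r. replicates 2 and 4 and NC replicates 1, 2, and 4. Besides *Junb*, the log2 fold change of *Fos* moved from 0.05 to 0.42, that of *Fosb* from 0.09 to 0.26, and that of *Fosl1* from 0.80 to 1.05. *Maff* was at 0.70 and *Atf3* at −0.46. *Fosl2* moved from −0.24 to −0.046 and *Jund* from −0.20 to −0.0081, while *Jun* was at −0.16. No edgeR adjusted p value was under 0.05, and *Maff*, *Fosl1*, and *Junb* had an unadjusted p value under 0.05. The part of muscle and cartilage RNA in these values was not tested.

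**Figure D4:**
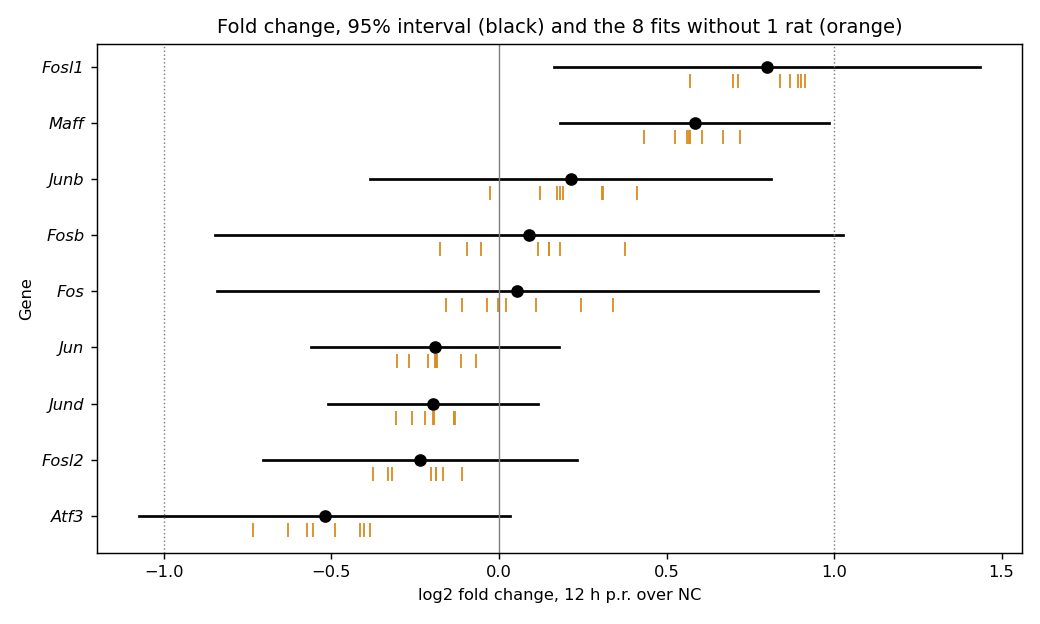
log2 fold change of 12 h p.r. over NC (x axis) for each AP-1 gene (y axis), with the 95% interval of the edgeR fit as a black line and the values of the 8 fits that each leave out 1 rat as orange ticks. Dotted lines mark a 2-fold change, and the intervals of *Fosl1* and *Maff* lie to the right of 0 before adjustment for the number of genes.

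The running rats held both the lowest and the highest sums of the 9 genes. 12 h p.r. replicate 1 was the lowest of the 8 rats in 6 of the 9 genes, *Fos*, *Fosb*, *Fosl2*, *Jun*, *Junb*, and *Jund*, while it was the lowest in 12.6% of all genes tested. Its median difference from the median rat was −0.54 on the log2 scale over the 9 genes and 0.00444 over all genes. 12 h p.r. replicate 2 was the highest rat in 3 of the 9, *Fos*, *Fosl1*, and *Junb*, and in 12.9% of all genes. In the sum of the 9 genes these rats were the extremes, at 283 and 466 CPM, and the NC rats lay between them, from 389 to 425 CPM. Both had the shallowest libraries, with 7584345 and 7350509 reads. Replicate 1 also had cartilage and bone RNA, as given above, and neither depth nor tissue was tested as a source of the pattern.

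Other early response genes were low in the same rat. Of 21 such genes tested, which include *Egr1*, *Ier2*, and *Zfp36*, 13 were lowest in 12 h p.r. replicate 1. Without this rat, the log2 fold change of *Fos* was 0.34, that of *Fosb* 0.38, and that of *Junb* 0.41, none with an edgeR adjusted p value under 0.05. As it was the lowest rat in these genes, leaving it out can only raise the running group. Leaving out a high running rat moved them the other way. Without 12 h p.r. replicate 2, *Fos* was at −0.16 and *Junb* at −0.026, and without 12 h p.r. replicate 3, *Fosb* was at −0.18.

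**Figure D5:**
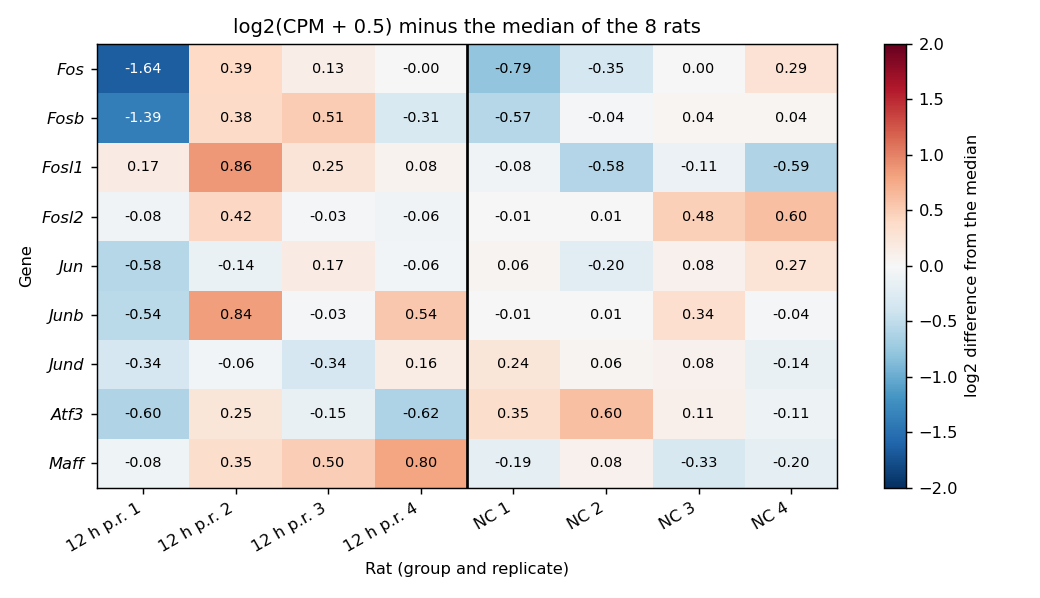
log2(CPM + 0.5) of each AP-1 gene (y axis) in each rat (x axis) minus the median of the 8 rats, as colour and number, with 12 h p.r. rats left of the black line and NC rats right of it. The column of 12 h p.r. replicate 1 is the lowest in *Fos* (−1.64), *Fosb* (−1.39), and 4 other genes.

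Among the 9 genes the spread within groups was widest for *Fos*, *Fosb*, and *Junb*, and 12 h p.r. replicate 1 carried much of it. The SD of log2(CPM + 0.5) within groups was 0.73 for *Fos*, above 94.1% of all genes tested, 0.65 for *Fosb* (92.2%), and 0.45 for *Junb* (83.1%). *Jun*, also an early gene, had an SD of 0.26 (57.6%), below those of *Atf3*, *Fosl1*, *Maff*, and *Fosl2*. It was 0.20 for *Jund* (42.1%), near the median of 0.23 over all genes. Each SD was also ranked among the 1000 genes of nearest abundance. There *Fos* was above 96.6%, *Junb* above 92.6%, *Fosb* above 83.8%, *Jun* above 77.5%, and *Jund* above 63%. The highest rat exceeded the lowest by 4.68 times in *Fosb*, by 4.30 times in *Fos*, and by 1.4955 times in *Jund*. Without 12 h p.r. replicate 1 the SD was 0.38 for *Fos*, 0.36 for *Fosb*, and 0.31 for *Junb*, beside 0.36 for *Atf3* and 0.34 for *Fosl1*, and the highest rat exceeded the lowest by 2.31 times in both *Fos* and *Fosb*.

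Each pair of the 9 genes was compared across the 8 rats, 36 pairs in all, and 28 had a Pearson's r above 0. Without the pair of rats farthest from the median of the first gene, 20 of 36 did. *Fos* and *Fosb* had the highest r, 0.93 (exact permutation p = 0.00332, adjusted over the 36 pairs p = 0.12), with a Spearman's rho of 0.86 (exact permutation p = 0.0107, adjusted p = 0.386). Without the rats farthest from the median of *Fos*, 12 h p.r. replicate 1 and NC replicate 1, r was 0.50, so the relation rests largely on them. The relations of *Fos* with *Junb* (r = 0.73, rho = 0.38, exact permutation p = 0.0389 and p = 0.36) and with *Jun* (r = 0.73, rho = 0.55, exact permutation p = 0.0467 and p = 0.171) weakened likewise, to r of 0.37 and 0.45. Their adjusted p values were 0.56 for r and 0.891 and 0.707 for rho. None of the 36 pairs had an adjusted p value under 0.05, and 3 had an exact permutation p of r under 0.05. *Maff* and *Fosl1*, the genes with an unadjusted p value under 0.05, had an r of 0.46 over the 8 rats (rho = 0.62, exact permutation p = 0.255 and p = 0.115) and of −0.27 when the group means were subtracted.

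For each AP-1 gene the genes most like it across the 8 rats were searched among 9535 other genes with a mean of at least 10 CPM. As the best of so many, their correlations are given as a description only, and all points share library and scaling. *Fos* was nearest to *Zfp36* (r = 0.94), an early gene whose protein destabilizes mRNAs with AU-rich elements, and then to *Cnep1r1* and *Lamtor3*. *Fosb* was nearest to *Mtrr* (r = 0.96), *Actc1*, a cardiac muscle actin gene, and *Ppp1r15a*, a stress gene that lets translation resume. *Fosl1* was nearest to *Kdsr* (r = 0.97), *Ifnar2*, and *Tshz1*, and *Fosl2* to *Ankrd28* (r = 0.95), *Scaf8*, and *Nol11*. *Jun* was nearest to *Epdr1* (r = 0.97), *Mios*, and *LOC108349548*, *Junb* to *Clec5a* (r = 0.95), a myeloid receptor gene, *Fam114a1l1*, and *Cnnm4*, and *Jund* to *Ik* (r = 0.95), *Itgb3bp*, and *Pigk*. *Atf3* was nearest to *Ebag9* (r = 0.95), *Fopnl*, and *LOC108351482*, and *Maff* to *LOC100363452* (r = 0.96), *AC103221.1*, and *Dnajc14*.

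Other basic leucine zipper genes, partners and relatives of AP-1, were taken as a list of their own. Of 25 listed, 23 were tested, 2 were higher and 0 lower at an edgeR unadjusted p value under 0.05 (8.70% of the tested, against 9.51% of all genes), and the median log2 fold change was −0.02. *Atf5*, the most abundant of them, was at 642, 620, 541, and 708 CPM at 12 h p.r. and at 507, 475, 403, and 435 CPM in the NC rats (log2 fold change of 0.46, SE 0.13, edgeR adjusted p = 0.432). Every running rat was above every NC rat in *Atf5*, and DESeq2 gave an adjusted p value of 0.0361. *Creb1*, which binds the cAMP response element, was at 9.32, 11.5, 10.2, and 9.67 CPM in the running rats, all above the 6.01, 5.76, 9.14, and 6.97 CPM of the NC rats (log2 fold change of 0.54, SE 0.18, edgeR adjusted p = 0.434). The small Maf genes *Mafg* and *Mafk*, the closest relatives of *Maff*, had log2 fold changes of 0.09 (SE 0.14) and 0.03 (SE 0.08). *Batf* and *Batf2* did not pass the filter.

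The kinases and transcription factors that act on AP-1 genes gave 24 tested of 26 listed, with 3 higher and 0 lower at an unadjusted p value under 0.05 (12.5%, against 9.51% of all genes) and a median log2 fold change of 0.10. *Elk3*, an ETS factor that binds next to serum response factor and was the most abundant of the list, was at 175, 170, 183, and 192 CPM at 12 h p.r. and at 147, 135, 128, and 141 CPM in the NC group. The groups did not overlap in *Elk3*, and its log2 fold change was 0.38 (SE 0.09, edgeR adjusted p = 0.385, DESeq2 adjusted p = 0.00937). *Mapk3*, which encodes the kinase ERK1, was at 168, 156, 161, and 188 CPM in the running rats and at 146, 126, 139, and 128 CPM in the NC rats, also without overlap (log2 fold change of 0.32, SE 0.10, edgeR adjusted p = 0.433). *Map3k1*, a kinase upstream of JNK, had a log2 fold change of 0.98 (SE 0.40, edgeR adjusted p = 0.498) with overlapping groups. Of 16 genes for partners and regulators of the AP-1 proteins, 13 were tested and 0 had an unadjusted p value under 0.05.

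Known AP-1 target genes gave 21 tested of 26 listed, with a median log2 fold change of −0.05. The chemokine gene *Ccl2* was higher at 12 h p.r. at an unadjusted p value under 0.05 and 0 were lower, 1 of 21 against 9.51% of all genes. It was at 23.04, 111, 51.2, and 82.4 CPM at 12 h p.r. and at 18.1, 16.1, 25.1, and 13.9 CPM in the NC group (log2 fold change of 1.87, SE 0.42, edgeR adjusted p = 0.385, DESeq2 adjusted p = 0.00267). The groups overlapped, since 12 h p.r. replicate 1 was below NC replicate 3. Among the running rats, *Ccl2* was lowest in replicate 1 and highest in replicate 2, the rats with the lowest and highest AP-1 sums. Some other targets shared these extremes and some did not, such as *Mmp9* and *Spp1*, which were highest in replicate 1. This order was seen after the values were known, and no relation of *Ccl2* to the AP-1 genes was tested. Of the metalloproteinase genes, *Mmp3*, *Mmp9*, *Mmp10*, and *Mmp14* were tested, with log2 fold changes of 0.29 (SE 0.62), −0.35 (SE 1.93), 0.99 (SE 0.81), and −0.01 (SE 0.18). The value of *Mmp9* rests on NC replicate 3, at 110 CPM, and 12 h p.r. replicate 1, at 86.6 CPM. In the other rats *Mmp9* was at 1.13 CPM or less. *Mmp1* and *Mmp13* did not pass the filter, but the latter was at 111 CPM in NC replicate 3 and 50.7 CPM in 12 h p.r. replicate 1, the rats with high cartilage and bone markers, and at 0.659 CPM or less in the others. *Spp1*, the most abundant target, was at 1377 CPM in NC replicate 3, 108.7 CPM or less in the other NC rats, and 504, 318, 21.7, and 493 CPM at 12 h p.r. The groups overlapped in *Spp1*, with a log2 fold change of −0.26 over all rats (SE 1.16, edgeR adjusted p = 0.961). NC replicate 3 and 12 h p.r. replicate 1 were also high in the cartilage and bone markers, and the other rats were not. The source of the *Spp1* RNA was not tested.

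Among the other early response genes, 21 of 24 were tested, with 1 higher and 3 lower at an unadjusted p value under 0.05 (of all genes, 5.44% were higher and 4.08% lower) and a median log2 fold change of −0.10. *Klf4*, a zinc finger factor and the most abundant of these, was at 121, 183, 138, and 173 CPM in the running rats and at 246, 213, 183, and 248 CPM in the NC rats, where the highest running rat (182.8 CPM) was just below the lowest NC rat (183.1 CPM) (log2 fold change of −0.53, SE 0.16, edgeR adjusted p = 0.433). *Nr4a3*, an orphan nuclear receptor gene, was at 2.25 to 2.85 CPM in the running rats and at 3.07 to 4.50 CPM in the NC rats, without overlap (log2 fold change of −0.63, SE 0.21, edgeR adjusted p = 0.433). *Egr3* had a log2 fold change of −1.26 (SE 0.54, edgeR adjusted p = 0.507) and *Ier5* one of 0.29 (SE 0.11, edgeR adjusted p = 0.486), both with overlapping groups.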

How the data were processed

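Poly(A) mRNA of 8 rat Achilles tendons was sequenced, 4 rats at 12 h p.r. and 4 NC rats, with group and replicate number as labelled. The authors aligned reads to Rnor_6.0 with HISAT2 2.1.0 and deposited raw read counts per Ensembl gene from featureCounts 1.6.3. The strand setting and the treatment of multi-mapping reads are not given in the sources used here. In the deposited FPKM, each count was scaled by the length of its gene and by a factor for each rat that matched the DESeq2 size factor, and the implied lengths were whole numbers within 0.05 bases for all of the 2000 genes with the most reads. The table of the authors' own comparison (log2 fold changes and p-values by DESeq2 1.30.1, with FPKM repeated) was not used.

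Genes were filtered with filterByExpr, scaled by TMM factors, and tested with the quasi-likelihood test of edgeR 4.0.16 (R 4.3.3), with Benjamini-Hochberg adjustment over 13937 genes. Standard errors were taken from the F statistic. CPM used TMM-scaled library sizes. Exact permutation tests ran over all 70 splits of the rats on log2(CPM + 0.5). DESeq2 1.42.0 and limma 3.58.1 served as alternatives. The total counts of 7350509 to 12951397 limit the precision of genes near 1 CPM. Nothing in the labels says that rats were littermates, and the p-values measure the spread between these rats.

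The AP-1 genes and all lists were chosen with earlier results of these data known. Besides the 9 genes, the text names from each list the genes with an unadjusted p value under 0.05 (at most 4, those with the smallest p) and the most abundant gene, and the 3 genes most like each AP-1 gene. Some results that this rule covers are not reported here. *Mafg*, *Mafk*, *Mmp1*, *Mmp3*, *Mmp9*, *Mmp10*, *Mmp13*, *Mmp14*, *Batf*, *Batf2*, *Egr1*, *Ier2*, and the genes of the closing section were named after their values were seen. Tested on simulated counts of 13785 genes for 12 h p.r. against NC, the edgeR test called 58 of 100 genes changed by 1 on the log2 scale and 94 of 100 changed by 2, with 11 unchanged genes called. The changed genes were drawn only from genes above a minimum mean count. Simulated counts followed the dispersion estimated for each gene, so the shares called need not hold for genes with few reads or wider spread.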

Additional observations from a re-analysis of the deposited data

Results flagged for a closer look

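In the 52 groups of 4 values checked for 1 rat far from the rest of its group (Dixon's criterion), 6 held such a rat, where chance gives about 2.6. In *Fosb*, NC replicate 1 was low, with a log2(CPM + 0.5) of 1.76 against 2.30 to 2.37 in the other NC rats. In *Fosl2*, 12 h p.r. replicate 2 was high, at 3.45 against 2.95 to 2.9995. In *Junb*, NC replicate 3 was high, at 6.59 against 6.20 to 6.26. This rat was also high in the mean log2 value of the upstream kinase and transcription factor list, at 4.64 against 4.47 to 4.49, and in that of the cartilage and bone markers, at 6.91 against 1.64 to 2.28. NC replicate 1 was low in the list of partners and regulators of AP-1 protein, at 5.21 against 5.37 to 5.40. *Fos* in 12 h p.r. replicate 1 did not meet the criterion.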

How the results depend on the processing

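Each of the 9 log2 fold changes was computed again under 11 alternatives with all or most rats and without each rat in turn, and in none was an AP-1 gene past an adjusted p value of 0.05. The number of AP-1 genes called was 0 in the main test and in all of these, and 2 where an unadjusted p value under 0.05 was used in its place, which was 2 or 3 in every alternative. *Fos* and *Fosb* changed sign. With limma on log2(FPKM + 1) they were at −0.061 and −0.00062, with limma on log2(FPKM + 0.1) at −0.081 and −0.083, and with the replicate block at −0.058 and −0.056. The cause was not tested. The spread of the AP-1 genes without 12 h p.r. replicate 1 was computed after seeing the data. Without 1 rat each, *Fos* ran from −0.16 to 0.34, *Fosb* from −0.18 to 0.38, and *Junb* from −0.026 to 0.41, while *Fosl1* (0.57 to 0.91), *Maff* (0.43 to 0.72), and *Atf3* (−0.74 to −0.38) kept their sign. With the skeletal muscle marker mean as a covariate, *Maff* was at 0.59 and *Fosl1* at 0.79. Nothing in the labels pairs rats of the same number: deviations from the group means of same-numbered rats correlated at 0.07, −0.20, 0.13, and 0.09 across genes. The replicate block moved the genes with an unadjusted p value under 0.05 from 1326 to 974 and changed no adjusted call of an AP-1 gene, while the unadjusted p value of *Atf3* went from 0.0621 to 0.021. Over all genes, edgeR called 1 at an adjusted p value under 0.05 and DESeq2 96, limma on FPKM 0, the replicate block 0, and the muscle covariate 2, and without 1 rat each there were 879 to 1580 genes with an unadjusted p value under 0.05 (the fewest without NC replicate 4) and 0 with an adjusted one. Depth limits *Fosl1* and *Fosb*, with 14 to 42 and 11 to 62 reads per rat.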

Other observations

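Lists outside AP-1 also held genes with an edgeR unadjusted p value under 0.05, none with an adjusted p value under 0.05. Of all genes, 9.51% had an unadjusted p value under 0.05. Of 14 clock genes tested, 2 were called higher and 3 lower at this unadjusted threshold. *Arntl* was at 12.5 CPM at 12 h p.r. and 7.57 CPM in the NC group (means of 4 rats), *Nr1d1* at 177 and 124 CPM, *Per1* at 56.9 and 92.4 CPM, *Per2* at 50.4 and 92.5 CPM, and *Cry1* at 6.55 and 11.8 CPM. DESeq2 gave *Per2* an adjusted p value of 0.0056. Of 10 tenocyte markers, 3 were called higher, *Scx*, *Mkx*, and *Thbs4*, and 0 lower. Of 7 endothelial markers tested, 1 was called higher and 1 lower. In the skeletal muscle, cartilage and bone, leukocyte, pericyte and smooth muscle, and adipocyte lists 0 genes had an unadjusted p value under 0.05, with 9, 3, 7, 7, and 6 genes tested.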
